A study of Mus musculus with 2 samples.

Results

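The genes described here write, recruit or remove methylation of histone H3 lysine 9 (H3K9): Ehmt1, Ehmt2, Setdb1, Suv39h1, Suv39h2, Trim28, Zfp57, Kdm3a and Kdm4c. They were chosen by name with earlier results of these data known, and Ehmt1 was included as a known multi-peak locus. They are 9 of 22238 protein-coding symbols in the GENCODE M1 annotation of mm9. Binding of POU5F1, better known as the pluripotency factor OCT4, was mapped by chromatin immunoprecipitation and sequencing (ChIP-seq) with a POU5F1 antibody. The cells were E14TG2a.4, a male embryonic stem (ES) cell line of strain 129/Ola. There is 1 group of 2 biological replicates of this single line, with no genotype, treatment or time point to compare. A control experiment is listed in the labels and was not used here. Peaks show where POU5F1 was enriched on DNA and carry no expression values, so the identity of the cells was not checked by marker RNA.

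A peak was assigned to a gene when it overlapped the gene body or when its centre lay within 50 kb of an annotated transcript start. The authors' mm9 lists held 5515 peaks for the whole series, 1330 for replicate 1 and 6324 for replicate 2. Their mm10 lists held 3994 optimal and 2676 conservative peaks after an irreproducible discovery rate (IDR) procedure. Signal is the authors' value for each peak, with unstated scaling, so signals were not compared between lists and ranks within a list were used instead. Many peaks share a signal, and tied peaks all take the best rank of their tie. A rank can therefore understate how many peaks are as strong. Each list gives 1 value per peak without a replicate error, and the depth of the libraries is unknown. No test was made on the 9 genes, since there is no second group.

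H3K9 methylation marks silent chromatin. EHMT1 (GLP) and EHMT2 (G9a) act as a pair and place mono- and dimethylation, largely in euchromatin, while SUV39H1 and SUV39H2 place trimethylation at pericentric heterochromatin. SETDB1 is brought to endogenous retroviruses and imprinted loci by TRIM28 (KAP1), which binds KRAB zinc finger proteins such as ZFP57. KDM3A (JMJD1A) and KDM4C (JMJD2C) are demethylases that remove these marks, and both have been described as targets of OCT4 in mouse ES cells.

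Peaks were listed at 7 of the 9 genes in the whole-series mm9 list, and these genes held 11 peaks. Ehmt1, included as a known multi-peak locus, had 3 intronic peaks, one of which ranked 48 of 5515. The other genes had weaker peaks: Kdm3a and Trim28 had 2 each, and Ehmt2, Setdb1, Suv39h1 and Zfp57 had 1 each. Suv39h2 and Kdm4c had no peak in any of the 5 lists. Among all protein-coding genes, 28.5% met the same rule in the whole-series list. In the replicate 2 list 7 of the 9 genes had a peak, against 31.3% of all genes. In the replicate 1 list only Ehmt1 did, against 8.57% of all genes. On mm10, 6 of the 9 genes had an optimal peak, against 17.9% of 21900 symbols, and 3 had a conservative peak, against 12.8%. The 3 were Ehmt1, Suv39h1 and Trim28.

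**Figure D1:**
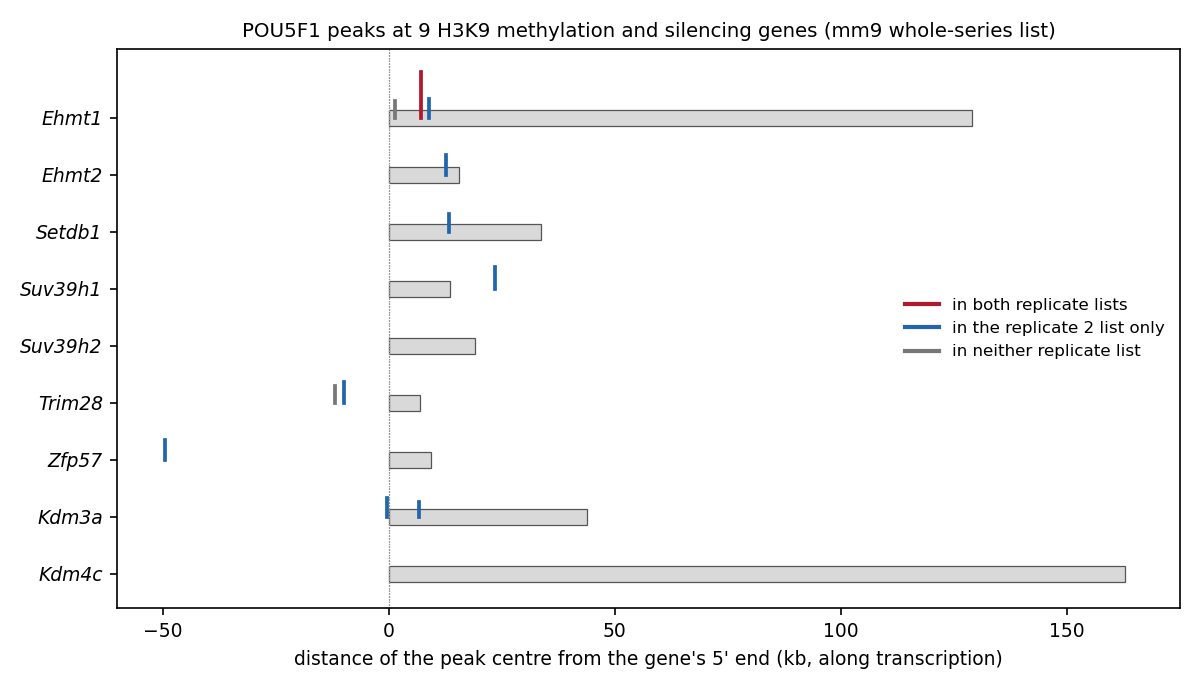
Position of the 11 whole-series mm9 peaks along the 9 genes, with distance from the 5′ end of each gene in kb on the x axis and 1 gene per row. Grey bars are gene bodies, vertical marks are peak centres with a height that grows with the authors' signal, and colour gives the replicate lists that hold an overlapping peak; the tall mark in Ehmt1 is the only one in both lists, and Suv39h2 and Kdm4c have none.

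Ehmt1 encodes one of the paired enzymes that place mono- and dimethylation and spans 129 kb on the minus strand of chromosome 2 (24646289 to 24775129, mm9). Its 3 peaks all lay in introns within the first 10 kb of the gene. The central peak (24767673 to 24768176) was 7.19 kb downstream of the nearest annotated start. Its signal was 17.03 in the whole-series list, with a −log10 p of 84.67, and 0.888% of peaks in that list were as strong or stronger. The same site had a signal of 10.58 in replicate 1, rank 116 of 1330, and of 29.36 in replicate 2, rank 54 of 6324. It therefore lay near the top of all 3 lists. It was also the only one of the 11 peaks with an overlapping peak in the replicate 1 list.

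The other Ehmt1 peaks were weak. The one farther into the gene (24766002 to 24766307) lay 8.96 kb from the start, 1.77 kb from the central peak. Its signal was 5.29 in the whole-series list, rank 2870, and 8.31 in replicate 2, rank 3163 with a q-value of 0.0655. No peak of the replicate 1 list overlapped it. The peak closest to the start (24773570 to 24773883), at 1.38 kb, had a whole-series signal of 4.70, rank 3836 with ties. In that list 77.8% of peaks were as strong or stronger. Neither replicate list held a peak that overlapped it. At least 3 whole-series peaks were assigned to 1.71% of all protein-coding genes, and Ehmt1 was the only one of the 9 genes with so many. At least 2 were assigned to 6.77% of all genes, and to Ehmt1, Trim28 and Kdm3a. Of the 6336 genes with a peak, 99 (1.56%) had a strongest peak with a signal as high as that of Ehmt1. Because the Ehmt1 peaks were known when the gene was chosen, these shares only describe the locus.

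On mm10 the Ehmt1 locus also held 3 peaks in the optimal list, at 8.94, 7.21 and 1.44 kb from the RefSeq start. The central one (24912316 to 24912491) had a signal of 147, rank 74 of 3994, and its strongest overlapping entries ranked 107 in the relaxed list of replicate 1 and 65 in that of replicate 2. The relaxed lists hold background as well as peaks, with 300000 entries each. The peak at 8.94 kb ranked 2679 in the optimal list, 6102 in replicate 1 and 3519 in replicate 2. The peak at 1.44 kb ranked 3674 in the optimal list, 11825 in replicate 1 and 7782 in replicate 2. The peaks at 7.21 and 8.94 kb, but not the one nearest the start, were also in the conservative list. All 3 sites had entries in both replicates on mm10, and the central site was the highest in each. An entry is usual: of the 3994 optimal peaks, 3722 had one in replicate 1 and 3976 in replicate 2.

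The windows of 300 bases centred on 2 of the Ehmt1 peaks are shown because the strong peak and a weak one differ in what they contain. Both are given on the plus strand of mm9, 5′ to 3′. In the strong peak (chr2:24767775-24768074) capitals mark the closest match to the composite SOX-POU element, which is CATTGT, any base, then ATGCAAAT. In the weak peak near the start (chr2:24773577-24773876) capitals mark an exact octamer, ATGCAAAT, the POU element alone.
Ehmt1 peak at 7.19 kb: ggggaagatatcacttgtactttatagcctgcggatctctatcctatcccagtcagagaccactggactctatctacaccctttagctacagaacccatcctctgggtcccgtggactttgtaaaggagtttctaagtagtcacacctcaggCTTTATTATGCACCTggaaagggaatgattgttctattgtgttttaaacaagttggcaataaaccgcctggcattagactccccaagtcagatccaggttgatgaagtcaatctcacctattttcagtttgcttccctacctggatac
Ehmt1 peak at 1.38 kb: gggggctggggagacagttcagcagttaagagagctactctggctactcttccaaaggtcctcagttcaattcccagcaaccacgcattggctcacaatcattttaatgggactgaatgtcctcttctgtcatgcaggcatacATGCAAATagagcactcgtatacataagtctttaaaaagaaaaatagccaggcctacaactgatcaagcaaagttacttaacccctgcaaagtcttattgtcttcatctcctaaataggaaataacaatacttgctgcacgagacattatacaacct
The strongest of the 11 peaks held no POU element as searched here, and its closest composite match differed from the element at 4 positions. The weak peak held the exact octamer with its centre 2.5 bp from the peak centre. The third window, at 8.96 kb, held a pair of octamers with 1 mismatch each, on the minus strand, with centres 3.5 and 6.5 bp from the peak centre.

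Ehmt2 encodes the partner of EHMT1 and spans 15.6 kb of chromosome 17 (35035414 to 35050997, plus strand, mm9). Its whole-series peak (35047920 to 35048306) overlapped an exon, 193 bp downstream of an annotated internal start and 12.7 kb from the 5′ end of the gene. The signal was 5.87, rank 2148, in the whole-series list and 11.34, rank 1325, in replicate 2. No peak of the replicate 1 list overlapped it. The peak was near the middle of the whole-series list, in which 43.9% of peaks were as strong or stronger.

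In the optimal mm10 list, Ehmt2 had a peak 12.2 kb from the nearest RefSeq start (34910954 to 34911289), with a signal of 30.8 and rank 2773. Its entries ranked 32002 in replicate 1 and 2887 in replicate 2, a position far lower in replicate 1. A pair of overlapping optimal peaks lay 41.1 and 40.9 kb upstream of the gene, with ranks of 3658 and 3894. These overlapped an entry ranked 3230 in replicate 2 and no entry in replicate 1. None of the Ehmt2 peaks was in the conservative list. For these mm10 peaks the gene with the closest start is not given here, so they are assigned to Ehmt2 by the rule alone.

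The Ehmt2 window is shown because it held both an exact octamer and the KLF motif GGGTGTGGC, which is bound by Krüppel-like factors. It is chr17:35047964-35048263 on the plus strand of mm9, with the octamer in capitals.
Ehmt2 peak: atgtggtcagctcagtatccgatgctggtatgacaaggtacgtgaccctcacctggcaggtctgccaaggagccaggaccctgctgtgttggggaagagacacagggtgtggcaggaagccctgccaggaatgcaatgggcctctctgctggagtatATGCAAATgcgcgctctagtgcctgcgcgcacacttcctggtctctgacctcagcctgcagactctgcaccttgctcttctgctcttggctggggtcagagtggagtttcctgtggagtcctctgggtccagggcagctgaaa
The octamer was centred 11.5 bp from the peak centre. The KLF motif was in 0.943% of all whole-series windows and in 0.544% of windows placed 2 kb downstream of them. No other window of the 9 genes held it.

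Suv39h1 encodes an enzyme that trimethylates H3K9 at pericentric heterochromatin and lies on the X chromosome (7638297 to 7651886, minus strand, mm9), of which a male line has a single copy. Its peak (7628170 to 7628542) lay between genes, 23.0 kb downstream of the nearest start and 9.76 kb beyond the 3′ end. No other protein-coding gene had a closer start. The signal was 6.75, rank 1402, in the whole-series list and 11.34, rank 1325, in replicate 2. The replicate 1 list held no overlapping peak. On mm10 the optimal peak 23.1 kb from the start (8051047 to 8051382) had a signal of 59.0, rank 777. Its entries ranked 858 in the relaxed list of replicate 1 and 863 in that of replicate 2. This peak was in the conservative list as well. The mm9 replicate 1 list, with 1330 peaks, has no peak at Suv39h1. How the mm9 and mm10 lists of a replicate relate is not stated, so ranks were not compared between them.

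The Suv39h1 window (chrX:7628207-7628506, plus strand, mm9) is shown because it was the only one of the 11 with a composite element of at most 2 mismatches. Capitals mark the element, which reads CATTGTCATGCTATT on the minus strand. It has 2 mismatches, both in the octamer part, and is centred 28.0 bp from the peak centre.
Suv39h1 peak: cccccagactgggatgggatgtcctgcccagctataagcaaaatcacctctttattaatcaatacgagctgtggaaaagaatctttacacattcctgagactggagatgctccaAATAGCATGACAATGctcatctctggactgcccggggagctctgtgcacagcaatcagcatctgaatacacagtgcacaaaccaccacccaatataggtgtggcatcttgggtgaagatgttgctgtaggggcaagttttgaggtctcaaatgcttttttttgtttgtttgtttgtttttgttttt
Composite elements of this kind were found in 13.1% of all whole-series windows and in 0.308% of windows placed 2 kb downstream of them.

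Suv39h2, which encodes the related enzyme, lies on chromosome 2 (3373087 to 3392303, minus strand, mm9) and had no peak. It lay just outside the limit of the rule: the nearest whole-series peak (3337360 to 3337897) was 54.1 kb from its start, with a signal of 5.58, rank 2471, and replicate 2 had a peak at the same distance. On mm10 the nearest optimal peak was 54.7 kb away, with a signal of 41.6. Within the rule, the best relaxed entries ranked 11606 in replicate 1 and 8366 in replicate 2, and they did not lie at the same site. The first was 28.6 kb upstream and the second 25.2 kb downstream of the start. Just inside the limit was Zfp57, whose single whole-series peak lay 49.4 kb from its start.

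Setdb1 encodes the methyltransferase that TRIM28 recruits, on chromosome 3 (95127447 to 95161124, minus strand, mm9). Its 1 peak (95147708 to 95148030) lay in an intron, 13.1 kb from the start. The signal was 4.99, rank 3324, in the whole-series list and 8.31, rank 3163, in replicate 2, and no replicate 1 peak overlapped it. This was among the weaker sites: 74.3% of the genes with a peak had one as strong or stronger. On mm10 no optimal peak met the rule, and the nearest was 70.2 kb away. The best relaxed entries ranked 19092 in replicate 1 and 19939 in replicate 2, at 32.3 and 36.5 kb from the start, and did not overlap. The closest composite match in the Setdb1 window had 6 mismatches, more than in any other of the 11.

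Trim28 encodes the corepressor that links KRAB zinc finger proteins to SETDB1, and is a short gene of 6.88 kb on chromosome 7 (13609501 to 13616384, plus strand, mm9). Both of its peaks lay upstream and closer to another gene, Zbtb45. The stronger (13599324 to 13599959), 9.86 kb upstream of Trim28, was 4.47 kb from the Zbtb45 start. Its signal was 6.35, rank 1845, in the whole-series list and 11.08, rank 1582, in replicate 2, with no overlapping peak in replicate 1. The weaker (13597497 to 13597839), 11.8 kb upstream of Trim28 and 2.5 kb from the Zbtb45 start, had a signal of 4.62, rank 4306, and overlapped no peak of either replicate. On mm10 there was 1 optimal peak, 9.75 kb upstream of Trim28 and 4.55 kb from the Zbtb45 start, with a signal of 51.1 and rank 1068. Its entries ranked 597 in replicate 1 and 1645 in replicate 2, and it was in the conservative list. As at Suv39h1, the mm9 list of replicate 1 has no peak there.

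Zfp57 encodes the KRAB zinc finger protein that protects methylation at imprinted loci. It lies on chromosome 17 (37138108 to 37147580, plus strand, mm9). Its whole-series peak (37088556 to 37088889) was 49.4 kb upstream of Zfp57 but 36 bp from the start of Ppp1r11, a gene for a regulatory subunit of protein phosphatase 1. The signal was 5.87, rank 2148, in the whole-series list and 8.31, rank 3163, in replicate 2, and the replicate 1 list had no overlapping peak. Replicate 2 had a second peak, 24.6 kb upstream (37113454 to 37113621), with a signal of 8.46, rank 3145 and a q-value of 0.0791, that was not in the whole-series list.

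The mm10 lists held other Zfp57 sites than the whole-series mm9 list. An optimal peak 24.6 kb upstream (36976424 to 36976759) had a signal of 27.8, rank 3168, and its entry ranked 3457 in replicate 2, with none in replicate 1. A pair of overlapping optimal peaks 18.5 and 18.3 kb upstream ranked 3679 and 3789. They shared entries ranked 87138 in replicate 1 and 4996 in replicate 2. No optimal peak lay at the Ppp1r11 start, the nearest being 24.8 kb from it. None of the Zfp57 peaks was in the conservative list. The gene with the closest start to each of these mm10 peaks is likewise not given here.

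Kdm3a encodes a demethylase of mono- and dimethylated H3K9 and lies on chromosome 6 (71538968 to 71582899, minus strand, mm9). A peak lay at its promoter (71583057 to 71583350), 304 bp upstream of the start. Its signal was 5.58, rank 2471, in the whole-series list and 9.07, rank 2517, in replicate 2. A weaker peak (71576043 to 71576317) lay in an intron 6.50 kb downstream, with a signal of 3.71, rank 5397, near the end of the whole-series list, and of 6.81, rank 4982, in replicate 2. Neither had an overlapping peak in replicate 1. On mm10 the optimal list had 1 Kdm3a peak, 477 bp upstream of the RefSeq start (71633227 to 71633562), with a signal of 20.9 and rank 3796. Its entries ranked 19926 in replicate 1 and 5498 in replicate 2, and it was not in the conservative list. Promoter peaks were uncommon: 8.25% of whole-series peaks lay within 1 kb of a protein-coding start. Among the 11 peaks 3 did, at Kdm3a, at the internal start of Ehmt2 and at Ppp1r11.

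The Kdm3a promoter window (chr6:71583054-71583353, plus strand, mm9) is shown because it was the richest of the 11 in CpG, with 24 against a median of 3 over all whole-series windows. Capitals mark an octamer with 1 mismatch, centred 7.5 bp from the peak centre.
Kdm3a promoter peak: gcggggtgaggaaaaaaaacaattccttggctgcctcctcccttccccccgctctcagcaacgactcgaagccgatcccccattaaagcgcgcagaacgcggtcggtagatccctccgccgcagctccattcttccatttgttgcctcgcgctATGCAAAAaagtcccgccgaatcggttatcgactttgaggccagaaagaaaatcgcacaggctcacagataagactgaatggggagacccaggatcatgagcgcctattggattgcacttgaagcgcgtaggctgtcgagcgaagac
It also held CCAAT, the motif of the factor NFY, as did 33.0% of all windows and 37.1% of windows 2 kb downstream.

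Kdm4c encodes a demethylase of trimethylated H3K9 and is the longest of the 9 genes, at 163 kb on chromosome 4 (73888401 to 74051764, plus strand, mm9). It had no peak in any of the 5 lists despite that length. The nearest whole-series peak was 950 kb from a start, and the nearest replicate 2 peak 245 kb. In the relaxed mm10 lists, the best entry in replicate 2 ranked 3256 with a signal of 19.3, 7.58 kb downstream of a start (74259305 to 74259608), and no entry of replicate 1 overlapped it. The best entry in replicate 1 ranked 12713, 88.1 kb from the start, with none over it in replicate 2. In the mm9 list of replicate 2, Kdm3a thus had a promoter peak and Kdm4c had none. In the relaxed mm10 list of the same replicate, the best Kdm4c entry ranked above the Kdm3a promoter entry, at 3256 against 5498.

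**Figure D2:**
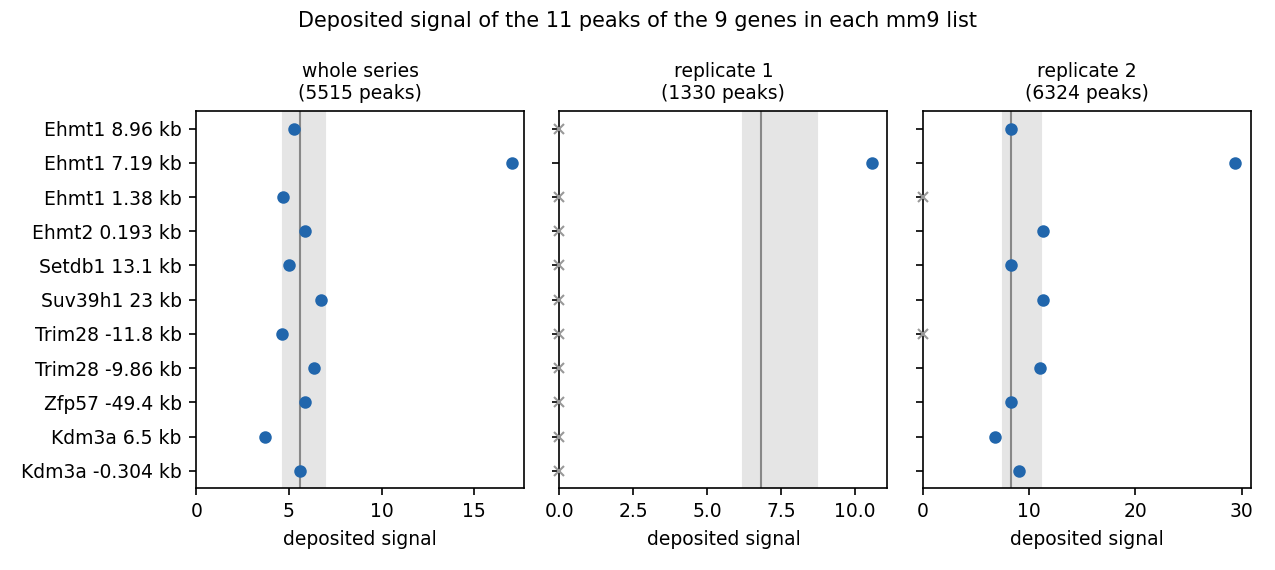
The authors' signal (x axis, unstated scaling) of the 11 peaks in the mm9 lists of the whole series, replicate 1 and replicate 2, with 1 peak per row named by gene and distance from its start (negative is upstream). Points are the deposited value of the peak or of the peak overlapping it, crosses mark no overlapping peak in that list, and the grey line and band are the median and quartiles of all peaks of that list; only the Ehmt1 peak at 7.19 kb is beyond the band in all 3 lists.

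Taken as a group, the 11 peaks had medians close to those of their list, with the central Ehmt1 peak near its top and the intronic Kdm3a peak near its end. Their median signal was 5.58, equal to the 5.58 of all 5515 peaks, and their median width was 334 bp against 367 bp. The median −log10 p was 9.585 against 10.875. A −log10 p of at least 10 was reached by 5 of the 11, against 54.3% of all peaks. These were the central Ehmt1 peak, Ehmt2, Suv39h1, the stronger Trim28 peak and Zfp57. The median of the strongest signal per gene was 5.87 for the 7 genes with a peak and also 5.87 for all 6336. The GC content of the 11 windows ranged from 42.0% at Setdb1 to 58.3% at Ehmt2, with a median of 45.7% against 46.0% overall.

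The replicates differed in how many of these sites they held. An overlapping replicate 2 peak was found for 9 of the 11, and for 86.7% of all whole-series peaks. An overlapping replicate 1 peak was found for 1 of the 11, and for 22.7% of all. The 2 peaks found in neither replicate list were the Ehmt1 peak at 1.38 kb and the weaker Trim28 peak. Another whole-series peak lay within 2.5 kb of 4 of the 11, namely 2 of the Ehmt1 peaks and both Trim28 peaks, against 5.87% of all peaks. The Ehmt1 peaks belong to the locus known in advance.

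**Figure D3:**
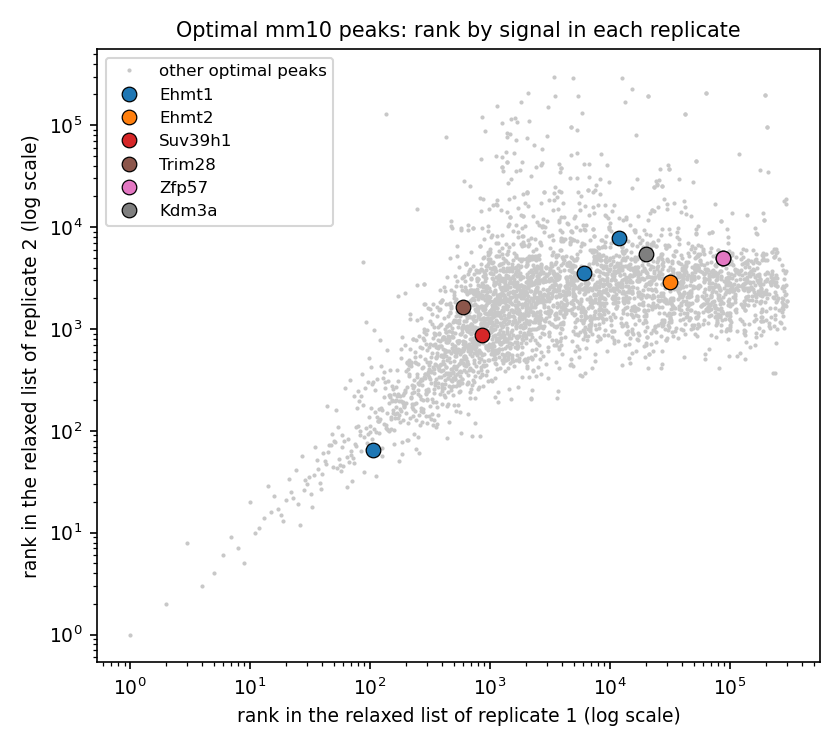
Rank of the optimal mm10 peaks by signal in the relaxed list of replicate 1 (x axis, log scale) and of replicate 2 (y axis, log scale), where low ranks are strong. Grey dots are the other optimal peaks and coloured points those assigned to the genes; the Ehmt1 peak at 107 and 65 is at the lower left, Suv39h1 and Trim28 follow, and peaks without an entry in replicate 1, at Ehmt2 and Zfp57, are not drawn, while an overlapping Zfp57 pair shares 1 point.

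Of the 3994 optimal peaks, 3722 overlapped an entry in replicate 1 and 3976 one in replicate 2. Among these the median rank was 3146 in replicate 1 and 2006 in replicate 2, with quartiles of 941 and 20448 and of 984 and 3457. The other 272 optimal peaks (6.81%) had no entry in replicate 1, and they include the overlapping Ehmt2 pair and 1 Zfp57 peak. The Suv39h1 and Trim28 sites and the central Ehmt1 site lay above the median in both replicates. The other Ehmt1 sites and the Kdm3a site ranked below it in both. So did the Ehmt2 and Zfp57 sites, except those that had no replicate 1 entry and ranked below it in replicate 2.

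A POU element, meaning the composite with at most 2 mismatches, the exact octamer, or either of the POU dimer elements MORE and PORE, was found in 3 of the 11 windows. These were the Ehmt1 peak at 1.38 kb, Ehmt2 and Suv39h1. Such an element was in 25.6% of all whole-series windows and in 3.19% of windows 2 kb downstream. MORE, ATGCAT repeated directly with 1 mismatch allowed, and PORE, ATTTGAA followed directly by ATGCAAAT with 2 mismatches allowed, were in none of the 11. MORE was in 2.43% and PORE in 2.01% of all windows. The exact octamer was in 14.3% of windows, and in 58.3% when 1 mismatch was allowed. With that mismatch 6 of the 11 windows held it, against 28.4% of the windows 2 kb downstream. Both strands were searched, and the composite and PORE contain the octamer, so a site can count for several elements.

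**Figure D4:**
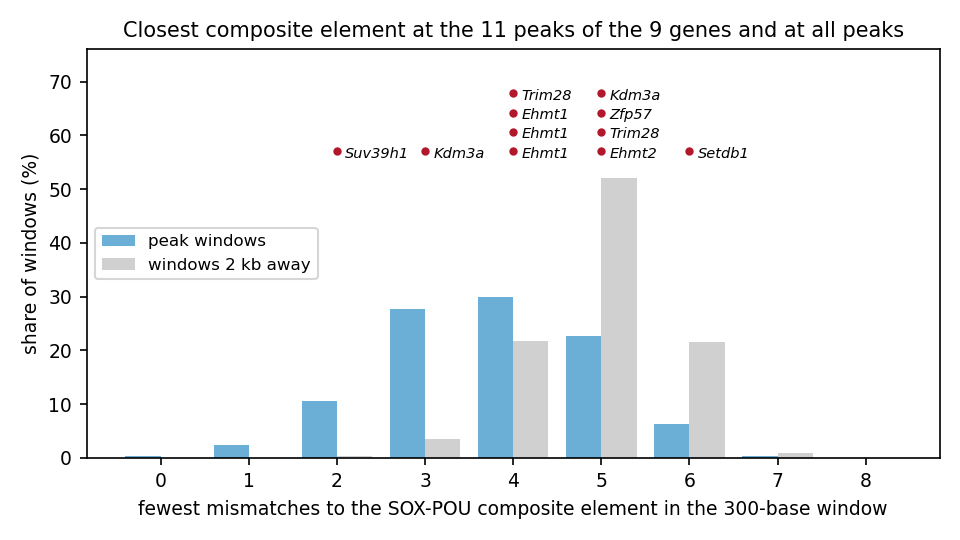
Fewest mismatches to the composite SOX-POU element (x axis) against the share of windows with exactly that number as their fewest (y axis, percent). Bars are given for all whole-series windows and for windows 2 kb downstream. Red dots give the fewest mismatches in each of the 11 windows of the 9 genes, and their height carries no value; Suv39h1 has the fewest, 2, and Setdb1 the most, 6.

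The closest composite match had 3 mismatches in the intronic Kdm3a window, 4 in the 3 Ehmt1 windows and in the weaker Trim28 window, and 5 in the Ehmt2, stronger Trim28, Zfp57 and Kdm3a promoter windows. Windows with at most 4 mismatches made up 70.6% of the whole-series list and 25.4% of the windows 2 kb downstream. The partner motifs CATTGTT for SOX factors, TCAAGGTCA for ESRRB, TTCCNGGAA for STAT factors and the GC box GGGCGG were in none of the 11 windows. They were in 8.27%, 1.92%, 1.47% and 7.36% of all windows. The CCAAT motif was in 4 of the 11, at the Ehmt1 peak nearest the start, Suv39h1, Zfp57 and the Kdm3a promoter.

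The other genes of H3K9 methylation and silencing were taken from a list of 38, of which 18 (47.4%) had a whole-series peak by the same rule, against the 28.5% of all genes. A replicate 2 peak was at 18 of them, against 31.3% of all genes, and a replicate 1 peak at 5, against 8.57%. On mm10, 14 had an optimal peak, against 17.9% of all genes, and 9 a conservative peak, against 12.8%. By role, peaks were at 6 of 7 cofactors of the methyltransferases, 5 of 8 readers, 3 of 9 erasers, 3 of 9 partners at heterochromatin and 1 of 5 other writers. The median of their strongest signals was 6.17.

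No gene of that list had a peak as strong as the central Ehmt1 peak. The strongest was at Zfp568, a KRAB zinc finger gene, with a signal of 12.04 and rank 191, although this peak lay 43.8 kb from its start and closer to Zfp14. Next was Kdm3b, a relative of Kdm3a, with an intronic peak of signal 11.45, closer to the start of Reep2. The third member of that eraser family, Jmjd1c, had a peak of 9.40, 12.1 kb upstream and within an intron of another gene. Among the cofactors, Cdyl, a chromodomain partner of EHMT2, and Wiz, a zinc finger partner of EHMT1 and EHMT2, each reached 9.69 in an intron, and Atf7ip2, a relative of the SETDB1 cofactor ATF7IP, reached 9.40. Zfp568, Kdm3b, Jmjd1c, Cdyl and Atf7ip2 also had an overlapping replicate 1 peak, with signals of 9.95, 7.47, 6.84, 7.46 and 8.71. Wiz had none. The windows of Zfp568 and Wiz held a POU element, and those of Kdm3b, Jmjd1c, Cdyl and Atf7ip2 did not.

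The strongest peaks of the remaining genes of this list ranked lower, from 1219 to 4384 of 5515 in the whole-series list. Cbx1, which encodes the HP1 beta reader of trimethylated H3K9, had a peak of signal 7.12 closer to Snx11. Pphln1, a HUSH complex subunit, had one of 6.46, only 0.448 kb upstream of its start though closer still to Zcrb1. Daxx, a histone chaperone, and Prdm16, a SET-domain gene, each had 6.17. The Daxx peak was closer to Vps52. Of the erasers related to Kdm4c, Kdm4a, Kdm4b and Kdm4d had no peak in any of the 5 lists.

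**Figure D5:**
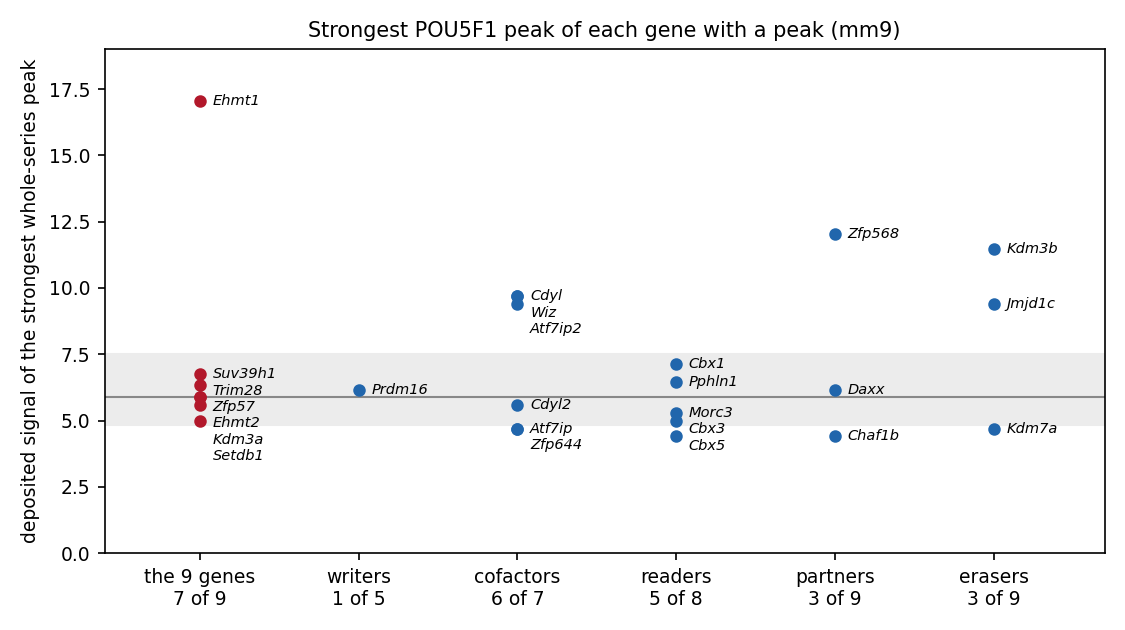
The authors' signal of the strongest whole-series mm9 peak (y axis, unstated scaling) for each gene with a peak, in red for the 9 genes and in blue for the other genes of H3K9 methylation and silencing, grouped by role. The grey line and band are the median and quartiles over all 6336 protein-coding genes with a peak, labels are spread to avoid overlap, and counts below give genes with a peak of all in the group; Ehmt1 is the highest point at 17.03, and Zfp568 the next at 12.04.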

How the data were processed

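Peak lists deposited by the authors for 2 biological replicates were used. Per the file headers, the broad mm9 lists cover replicate 1, replicate 2 and the whole series, and the mm10 lists are IDR-thresholded or relaxed. The aligner, peak caller, IDR threshold and how the replicates were combined on mm9 are not stated in the labels or headers, and the relaxed replicate lists derive from different numbers of undescribed files. The authors' signal per peak has no stated scaling. The deposited mm9 lists give −log10 p and q-values. The mm10 lists give no p-value, only −log10 q, and the deposited IDR lists also a score. Depth is unknown.

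Genes and starts were GENCODE M1 on NCBIM37 (mm9) and RefSeq on GRCm38.p6 (mm10); no coordinate was converted. All genes, starts and windows were searched with Python 3.11.15, pandas 2.3.3 and pysam 0.24.0, by steps tested on simulated data. Overlap meant 1 bp. The 38 other genes were matched by symbol, 3 by an older one on mm9. The genes, lists and motifs were chosen with earlier results of these data known. Named genes were the 9, up to 10 others by strongest signal, and the gene with the nearest start. Kdm4a, Kdm4b and Kdm4d were named after their values were seen. Alternatives were distance, list, overlap, p-value minimum and motif mismatches.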

Additional observations from a re-analysis of the deposited data

How the results depend on the processing

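With replicate 2 left out, so that the list of replicate 1 stood alone, and with replicate 1 left out, genes with a peak ranged from 1 to 7, their peaks from 1 to 10, Ehmt1 peaks from 1 to 2, other silencing genes with a peak from 5 to 18 and peaks with a POU element from 0 to 2. The conservative mm10 list gave 3 genes with 4 peaks and 9 other silencing genes; as the alternative to the optimal list, a choice made after seeing the data, it gave 3 genes in place of 6. A −log10 p of at least 10 left 5 peaks, 1 of them at Ehmt1, against 54.3% of all peaks. It left 11 other silencing genes. A limit of 10 kb also left 11 of these. Allowing the octamer 1 mismatch put a POU element in 7 of the 11 windows. The octamer alone was then in 58.3% of all windows. The cause of these changes was not tested. The 9 genes kept 5 with a peak at 10 kb and 8 at 100 kb, where Suv39h2 was added. The shares of all genes at 10 kb, at 100 kb and at the −log10 p minimum are not given here. These gene counts therefore have no background to be read against. Counts of shared peaks, 1 in replicate 1 and 9 in replicate 2, were the same under both other overlap rules. No paired analysis was possible because there is 1 group. Depth is unknown, so a missing peak in replicate 1 does not show that POU5F1 was absent.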
